A study of Labeotropheus fuelleborni and Maylandia zebra with 12 samples.

Results

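The comparison set replacement teeth of Labeotropheus fuelleborni against replacement teeth of Maylandia zebra, the species the series also calls Metraclima zebra. Both are rock-dwelling cichlid fishes of Lake Malawi. The libraries were taken by their labels for species and tissue. They were the 6 replacement tooth libraries among the 12 of the series, with 3 from L. fuelleborni (replicates 0, 3 and 4) and 3 from M. zebra (replicates 0, 1 and 3). The other 6 libraries came from oral epithelium bearing taste buds in the same species. They were not used in the scaling and test of tooth reported here, and appear where the tissues are set side by side and in 1 alternative fit over all 12 libraries. Per the labels' protocols, unerupted teeth were taken with forceps from the bony crypts of the jaw after the soft tissue outside the bone had been removed, and RNA was sequenced after a stranded mRNA preparation. The labels name no treatment. The sources used here give no age, sex or tooth stage, and do not say whether a library held 1 animal or several. What the p-values measure is therefore the spread between samples, part of which may be technical.

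Cichlids replace their teeth throughout life. Each replacement tooth forms inside the jaw bone, below the tooth it will follow, from an epithelial cap and a condensed mesenchyme that signal to each other through the Hedgehog, Wnt, BMP, FGF and Eda pathways. Mesenchymal odontoblasts then lay down a collagen-rich dentin matrix that mineralizes under a cap of hypermineralized enameloid. L. fuelleborni crops algae from rocks, whereas M. zebra has a broader diet that includes plankton.

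The deposited table gave read counts for 26490 features, 10619 with a gene name and 15871 known by a locus number alone. In tooth, 19518 features had a count and 6972 had none. After a filter on low counts 2552 features were tested, 1418 of them named. The tested features held 72.3% to 79.7% of the counts of a library. Total counts were 111626, 122957 and 300663 in L. fuelleborni and 155864, 184675 and 196861 in M. zebra, and a single count equalled 3.33 to 8.96 CPM, a scale on which each library's counts are set relative to its size. At this depth the median 95% interval of a log2 fold change (log2FC, L. fuelleborni over M. zebra) reached 1.14 to either side. Reads of both species were counted on 1 set of features. A difference in RNA level and a difference in how well the reads of each species match a feature therefore cannot be told apart. Reads from genes that overlap on opposite strands cannot be told apart either, since the strand setting is not given. In whole teeth, likewise, fewer cells of a type and less RNA per cell cannot be told apart.

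Tooth markers were read against the tissue label. Of the 26 dentin and bone matrix genes listed, 23 had a count in tooth, led by the collagen genes col1a1 and col1a2. The osteocalcin gene bglap, a marker of mature bone and dentin cells in mammals, had no count in any library. The list summed to 13375, 10312 and 49727 CPM in L. fuelleborni, against 22956, 38034 and 45890.2 in M. zebra, where such sums are relative to the unscaled library total. Lists of other tissues, which differ in length, gave smaller sums: skeletal muscle markers summed to 449 to 932 CPM in L. fuelleborni and 498 to 599 in M. zebra, and cartilage markers to 69.8 to 219.6 CPM in L. fuelleborni and 86.4 to 135 in M. zebra. Oral keratinocyte markers, which an epithelial cap would also carry, summed to 564 to 1543 CPM in L. fuelleborni and 856 to 1118 in M. zebra. Osteoblast and osteocyte markers came close to the matrix list, with which they share col1a1, col1a2 and col10a1. They summed to 10607, 8157 and 41405 CPM in L. fuelleborni, against 17727, 30378 and 35934 in M. zebra. Tooth and jaw bone therefore cannot be told apart by these sums.

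One library stood apart. L. fuelleborni replicate 4 had 6.62% of its counts in ribosomal protein genes, against 2.48% and 2.52% in replicates 0 and 3 and 1.93% to 2.79% in M. zebra. Its log2 CPM correlated at r = 0.685 and 0.7 with its own species' libraries and at 0.685, 0.688 and 0.762 with M. zebra replicates 0, 1 and 3, whereas pairs within M. zebra reached 0.824 to 0.890. These correlations are across features and describe the libraries. The first principal component held 40.8% of the variance and placed replicate 4 at -10.2, next to M. zebra (-21.1 to -11.9) and away from L. fuelleborni replicates 0 and 3 (36.5 and 24.3). The second held 24.7% and placed it at -36.4, apart from L. fuelleborni replicates 0 and 3 (0.862 and 3.38) and from M. zebra (2.89 to 16.1). Among the 74 features that passed the threshold when replicate 4 was left out, its values lay nearer to the other L. fuelleborni libraries for 42. The same count was 50 of 61 for L. fuelleborni replicate 0 and 51 of 68 for replicate 3. For M. zebra replicates 0, 1 and 3, values lay nearer to their own species for 47 of 68, 40 of 46 and 38 of 53. Genes past the threshold that rest on replicate 4 are therefore given with and without it. So are the matrix, mineralization, patterning, collagen, basement membrane and ribosomal lists. Most single genes that did not pass are given with all libraries only.

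**Figure D1:**
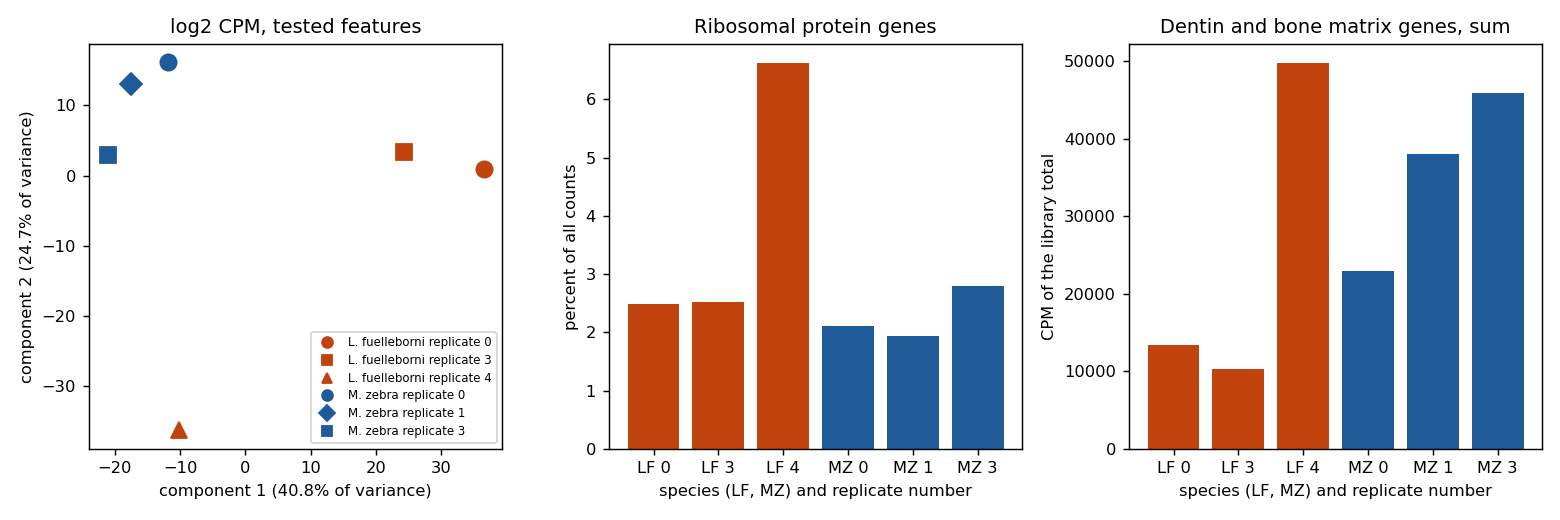
The 6 tooth libraries, with L. fuelleborni (LF) in red and M. zebra (MZ) in blue. Left, the first and second principal components of log2 CPM over the 2552 tested features; middle, the share of counts in ribosomal protein genes in percent; right, the sum of dentin and bone matrix genes in CPM of the library total. L. fuelleborni replicate 4 lies apart from replicates 0 and 3 in all 3 panels, with 6.62% ribosomal protein counts against 2.48% and 2.52%.

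Replacement teeth of the 2 species differed at few features. Under edgeR's quasi-likelihood test with Benjamini-Hochberg adjustment, 43 of 2552 features (1.68%) passed an adjusted p of 0.05. Of these 24 were higher in L. fuelleborni (0.94% of those tested) and 19 were lower there and higher in M. zebra (0.745%). Named features made up 16 of the 43 (1.13% of 1418 named features tested), with 10 higher in L. fuelleborni and 6 higher in M. zebra. The other 27 carried only a locus number (2.38% of 1134). For all 16 named genes the 3 libraries of one species lay above all 3 of the other. The 16 were picked by a test on these same libraries, so their separation is no further support. Over all features tested such separation held for 13.4% (6.47% with L. fuelleborni above, 6.94% with M. zebra above). An unadjusted p under 0.05 was found for 9.68% of features, 5.8% higher in L. fuelleborni and 3.88% higher in M. zebra. None of the 16 belongs to the dentin, enameloid, mineralization or tooth patterning lists. The median log2FC over all features was 0.05. Leaving out 1 library at a time gave counts of 46 to 74, with 2782 to 3315 features tested. The count moved by over 1.5 times without L. fuelleborni replicate 3 (68 of 3273), L. fuelleborni replicate 4 (74 of 2784) or M. zebra replicate 0 (68 of 3307). More features passed the filter in these fits than the 2552 above, so the counts are not shares of the same total.

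**Figure D2:**
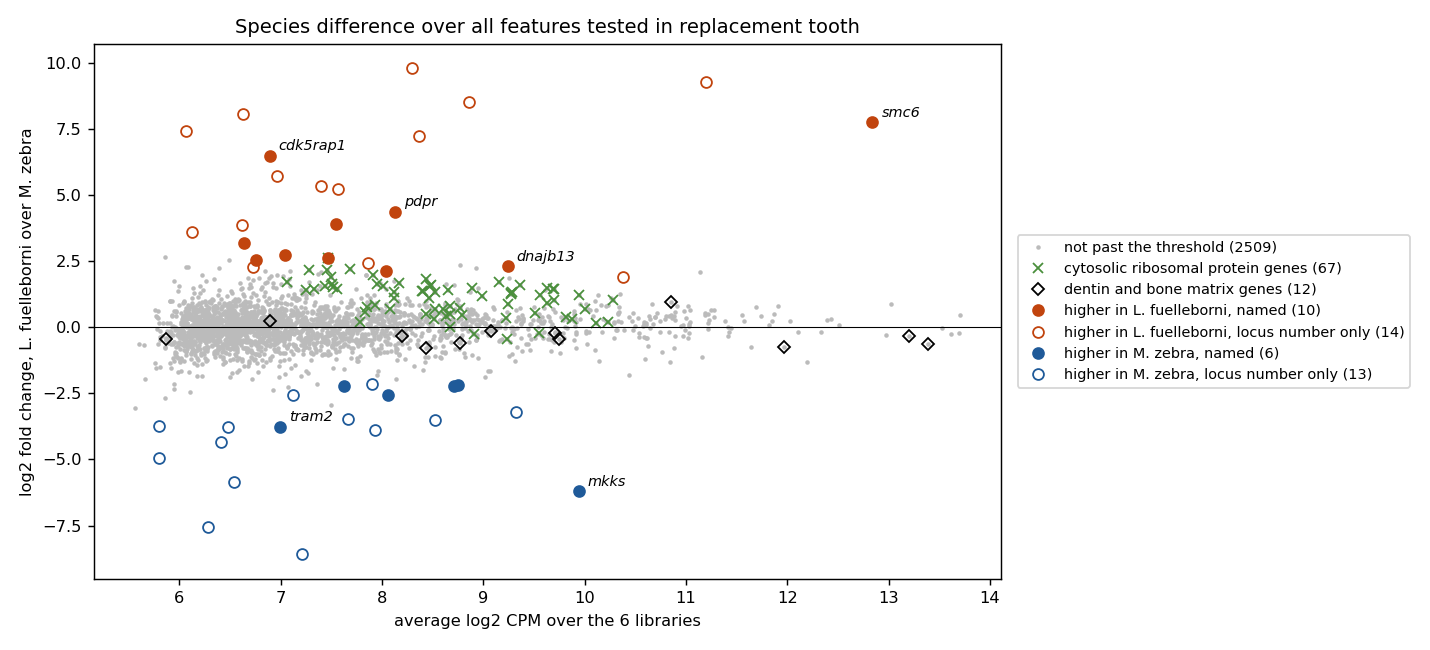
Log2 fold change of L. fuelleborni over M. zebra (y axis) against the average log2 CPM over the 6 libraries (x axis) for all 2552 features tested in tooth. Filled red and blue circles are the 16 named features past the threshold and open circles the 27 with a locus number only; ribosomal protein genes (green crosses) lie mostly above 0, and the dentin and bone matrix genes (black diamonds) lie between -0.78 and 0.96.

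Replicates are given below in the order 0, 3 and 4 for L. fuelleborni and 0, 1 and 3 for M. zebra. CPM values use library totals scaled by TMM factors, and adjusted p-values are those of the edgeR test over the 2552 features. The named genes are taken by their known roles, most of which come from work in mammals or yeast. They were not drawn from 1 pathway.

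The first group acts on chromosomes and RNA in the nucleus. The gene smc6 encodes a subunit of the SMC5/6 complex, which acts on chromosomes in DNA repair. It measured 21909, 11895 and 9934 CPM in L. fuelleborni, against 70.2, 25.7 and 103 CPM in M. zebra. All L. fuelleborni libraries lay far above all M. zebra libraries, and the summed counts gave a 189.8-fold higher level (log2FC 7.76 ± 0.76 SE, adjusted p = 6.89e-08). In L. fuelleborni replicates 0 and 3 smc6 lay above the collagen gene col1a1 (4714 and 3415 CPM). Whether all reads counted at smc6 come from that gene was not tested. The gene suv39h1, whose product methylates histone H3 at heterochromatin, measured 67.9, 92.1 and 41.0 CPM in L. fuelleborni, against 402, 262 and 249 CPM in M. zebra. Its level was 5.09-fold lower in L. fuelleborni (log2FC -2.22 ± 0.56 SE, adjusted p = 0.0297). Leaving out L. fuelleborni replicate 0, L. fuelleborni replicate 4 or M. zebra replicate 0 gave an adjusted p of 0.0677, 0.0564 or 0.105. The splicing factor gene cdc40 measured 19.4, 41.9 and 140.1 CPM in L. fuelleborni, against 369.9, 566 and 376 CPM in M. zebra. The highest L. fuelleborni library was replicate 4, below the lowest of M. zebra, and the level was 4.72-fold lower in L. fuelleborni (log2FC -2.55 ± 0.59 SE, adjusted p = 0.0148). Without that library its log2FC was -3.78 (adjusted p = 0.00347). With L. fuelleborni replicate 0 or L. fuelleborni replicate 3 left out, cdc40 had an adjusted p of 0.0677 or 0.0725. It also missed the threshold with a minimum count of 30, in limma-voom and in the fit over all 12 libraries. In taste bud epithelium its counts were 2, 3 and 45 in L. fuelleborni, with 45 in replicate 4, against 13, 0 and 8 in M. zebra. The species difference in tooth was thus not seen in taste bud, and L. fuelleborni replicate 4 was highest of its species in both tissues.

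Genes of mitochondrial and sugar metabolism came next. The gene pdpr encodes the regulatory subunit of pyruvate dehydrogenase phosphatase, which switches on the entry of pyruvate into the citric acid cycle. It measured 504, 628 and 434 CPM in L. fuelleborni, against 12.8, 36.0 and 23.5 CPM in M. zebra. The 3 libraries of each species lay close together relative to the gap between them, and pdpr was 19.9-fold higher in L. fuelleborni (log2FC 4.37 ± 0.60 SE, adjusted p = 1.40e-05). The gene cdk5rap1, which in mammals modifies mitochondrial tRNAs, had counts of 17, 32 and 65 in L. fuelleborni, against 0, 0 and 1 in M. zebra. With 1 count in M. zebra the ratio of 125 has a 95% counting interval of 21.9 to 4971 (log2FC 6.48 ± 0.85 SE, adjusted p = 6.30e-06). Without M. zebra replicate 3 its log2FC was 8.25 (adjusted p = 4.76e-07). The gene tgds encodes a protein of the dTDP-glucose dehydratase family. It measured 175, 176 and 147 CPM in L. fuelleborni, against 0, 25.7 and 23.5 CPM in M. zebra and was 8.97-fold higher in L. fuelleborni (log2FC 3.2 ± 0.67 SE, adjusted p = 0.00478). In limma-voom tgds had an adjusted p of 0.131.

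A further group encodes proteins of membranes, the Golgi or secretion. The gene tram2 encodes a protein of the endoplasmic reticulum translocon that has been tied to collagen synthesis in mammalian cells. It measured 0, 25.1 and 17.1 CPM in L. fuelleborni, against 166, 309 and 164 CPM in M. zebra, from 8 counts in L. fuelleborni and 121 in M. zebra. It was 13.8-fold lower in L. fuelleborni (log2FC -3.76 ± 0.69 SE, adjusted p = 8.71e-04), with an adjusted p of 0.0757 in limma-voom. The collagen maturation list, which does not hold tram2, had no member past the threshold among 12 tested, beside 1.68% of all features. The scavenger receptor gene scarf1 measured 223, 159 and 78.6 CPM in L. fuelleborni, against 644, 525 and 874 CPM in M. zebra. It was 5.47-fold lower in L. fuelleborni, with all 3 M. zebra libraries above the highest L. fuelleborni value (log2FC -2.19 ± 0.53 SE, adjusted p = 0.0228). Its adjusted p was 0.0810, 0.0521 or 0.118 when L. fuelleborni replicate 3, M. zebra replicate 0 or M. zebra replicate 3 was left out. The transporter-like gene svop measured 87.3, 234 and 106 CPM in L. fuelleborni, against 472, 921 and 606 CPM in M. zebra. Its level was 5.13-fold lower in L. fuelleborni (log2FC -2.23 ± 0.54 SE, adjusted p = 0.0218). Leaving out L. fuelleborni replicate 0, L. fuelleborni replicate 4 or M. zebra replicate 1 gave an adjusted p of 0.120, 0.0525 or 0.128.

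The golgin gene tmf1 measured 213, 712 and 321 CPM in L. fuelleborni, against 115, 56.6 and 113 CPM in M. zebra. It was 4.15-fold higher in L. fuelleborni and was the named gene nearest the threshold on its inner side (log2FC 2.12 ± 0.56 SE, adjusted p = 0.0440). With L. fuelleborni replicate 3, M. zebra replicate 0, M. zebra replicate 1 or M. zebra replicate 3 left out, tmf1 had an adjusted p of 0.270, 0.0746, 0.260 or 0.0882. The log2FC was 1.49 without L. fuelleborni replicate 3.

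The last group belongs to cilia, the cytoskeleton or protein turnover. The gene mkks encodes a chaperonin-like protein that helps assemble the BBSome, a carrier of ciliary cargo, and measured 48.5, 16.7 and 17.1 CPM in L. fuelleborni, against 3240.2, 1034 and 1452 CPM in M. zebra. It was 77.5-fold lower in L. fuelleborni, the lowest level relative to M. zebra among named genes past the threshold (log2FC -6.21 ± 0.70 SE, adjusted p = 4.76e-07). Without M. zebra replicate 0 its log2FC was -5.57 (adjusted p = 2.92e-07). The gene dnajb13 encodes an HSP40-family protein of the axoneme of motile cilia and sperm. It measured 1076, 887 and 1011 CPM in L. fuelleborni, against 338, 154 and 108 CPM in M. zebra. The L. fuelleborni libraries had an SD of 96.1 CPM around their mean, and the level was 5.30-fold higher there (log2FC 2.32 ± 0.53 SE, adjusted p = 0.0127). Its adjusted p was 0.128 or 0.156 when M. zebra replicate 1 or M. zebra replicate 3 was left out. Without M. zebra replicate 0 its log2FC was 2.93 (adjusted p = 0.00922).

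The actin-binding protein gene clmn had counts of 31, 31 and 30 in L. fuelleborni, against 12, 1 and 4 in M. zebra, and was 5.92-fold higher in L. fuelleborni (log2FC 2.73 ± 0.68 SE, adjusted p = 0.0274). Leaving out L. fuelleborni replicate 0, L. fuelleborni replicate 3, M. zebra replicate 1 or M. zebra replicate 3 gave an adjusted p of 0.0632, 0.0575, 0.132 or 0.0779. Without M. zebra replicate 0 its log2FC was 4.11 (adjusted p = 8.22e-04). The gene fbxo32 encodes atrogin-1, a ubiquitin ligase known from wasting muscle. It had counts of 30, 14 and 34 in L. fuelleborni, against 4, 9 and 3 in M. zebra, with a 5.34-fold higher level in L. fuelleborni (log2FC 2.55 ± 0.62 SE, adjusted p = 0.0228). With L. fuelleborni replicate 0, M. zebra replicate 0 or M. zebra replicate 3 left out, fbxo32 had an adjusted p of 0.120, 0.0521 or 0.133. Skeletal muscle markers, given above as sums, had 4 tested members and none past the threshold. All 4 had a log2FC above 0, with a median of 0.42 beside 0.05 over all features tested. Relative to the M. zebra mean (pseudocount 10 CPM), their median log2 level was 0.97, -0.49 and 0.09 in L. fuelleborni. The fbxo32 level was also highest in replicate 0, at 291 CPM. Of the members not tested, ckm had 1 count in each species and casq1 had none. The part of muscle markers in the fbxo32 difference was not tested.

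**Figure D3:**
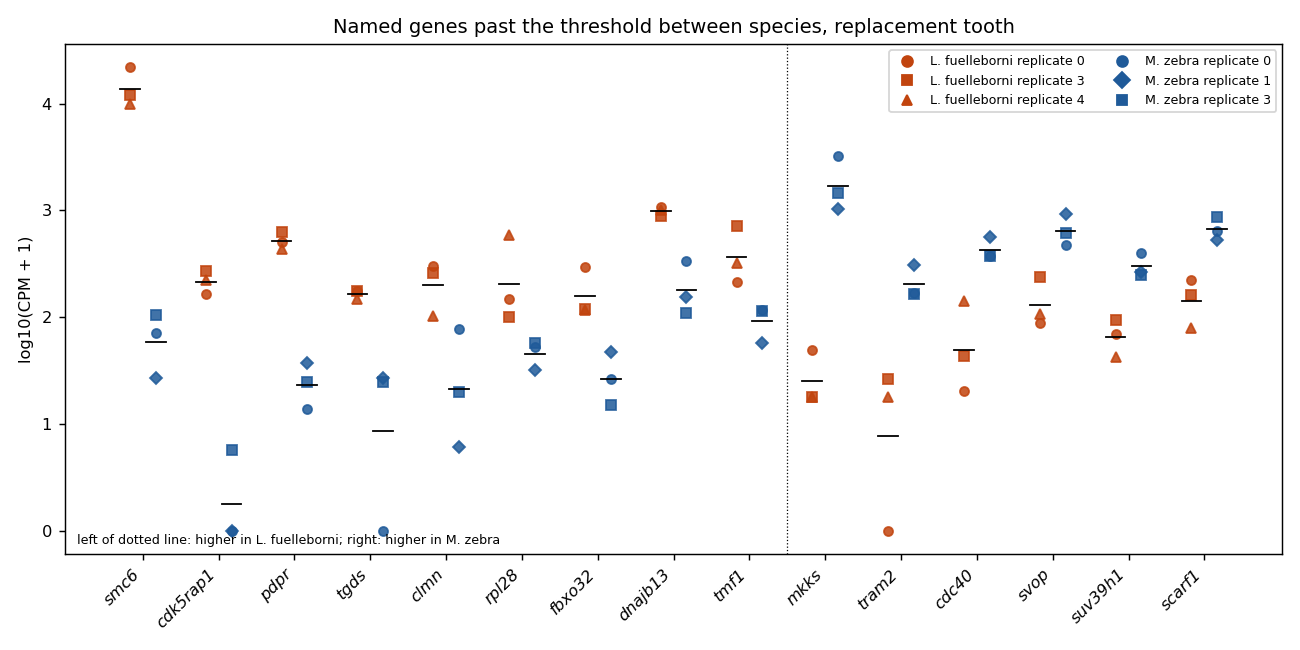
Level of 15 of the 16 named genes past the threshold in each tooth library, as log10(CPM + 1), with L. fuelleborni in red left of M. zebra in blue; symbols mark the replicate number and black lines the mean of the 3 plotted values. The 9 genes left of the dotted line are higher in L. fuelleborni and the 6 right of it higher in M. zebra, and in none of the 15 do the species overlap.

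The 4 features with a locus number alone are named for the size of their difference, as the table does not pair them with a gene. LOC101470201 had 68, 106 and 93 counts in L. fuelleborni and 0 in every M. zebra library. That is at least 97.4-fold higher in L. fuelleborni, set against 3 counts over the group at 0. LOC101484874 had counts of 642, 481 and 1120 in L. fuelleborni, against 0, 1 and 3 in M. zebra and was 614-fold higher in L. fuelleborni (log2FC 9.26, and 10.38 without M. zebra replicate 3). In the other direction, LOC101475761 had 0 counts in every L. fuelleborni library and 34, 70 and 48 in M. zebra, at least 46.3-fold lower in L. fuelleborni. LOC105940658 likewise had 0 counts in L. fuelleborni and 28, 24 and 19 in M. zebra, at least 21.6-fold lower. The edgeR adjusted p-values were 2.47e-07, 9.46e-09, 3.72e-06 and 7.59e-05 in that order. Bounds and counting intervals cover counting error only.

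Just outside the threshold lay cdc45, lrp8 and rps28, named here after their values were seen. The replication helicase gene cdc45 had counts of 2, 9 and 7 in L. fuelleborni, against 119, 20 and 9 in M. zebra. The species overlapped, and its high M. zebra mean came from replicate 0 (log2FC -2.95 ± 0.80 SE, adjusted p = 0.0556). The receptor gene lrp8 measured 233, 259.5 and 154 CPM in L. fuelleborni, against 453, 1096 and 818 CPM in M. zebra, with no overlap (log2FC -1.89 ± 0.52 SE, adjusted p = 0.0569). The ribosomal protein gene rps28 had counts of 13, 20 and 144 in L. fuelleborni, against 13, 9 and 11 in M. zebra (log2FC 2.16 ± 0.59 SE, adjusted p = 0.0569). Each passed in 5 of the alternative settings. For cdc45 these included no filter (adjusted p = 2.79e-04, edgeR) and leaving out M. zebra replicate 3 (adjusted p = 1.70e-04, edgeR). The cell cycle list holds cdc45. Without M. zebra replicate 0 none of its 12 tested members was lower in L. fuelleborni at an unadjusted p under 0.05. For lrp8 the settings included DESeq2 (adjusted p = 0.0153), and for rps28 leaving out L. fuelleborni replicate 0 (adjusted p = 0.0195, edgeR). Without L. fuelleborni replicate 4 none of the 67 tested ribosomal protein genes passed.

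No dentin or bone matrix gene passed the threshold, which 1.68% of all features tested did pass. In a list of 12 tested members, none past it does not depart from that share. The same holds for the other short lists in which none passed. Of the 26 matrix genes listed, 12 were tested. Of these 10 had a log2FC below 0, and the median of the 12 was -0.39 beside 0.05 over all features tested. The gene col1a1, for a chain of the type I collagen that forms most of the organic matrix of dentin, measured 4714, 3415 and 17200.0 CPM in L. fuelleborni, against 8585, 13827 and 16598 CPM in M. zebra. The gene of its partner chain, col1a2, measured 4829.9, 3206 and 16893 CPM in L. fuelleborni, against 6557, 11759 and 13182 CPM in M. zebra. For both, L. fuelleborni replicate 4 was above all M. zebra libraries while replicates 0 and 3 were below them. The log2FC was -0.62 (95% interval -1.86 to 0.61) for col1a1 and -0.34 (95% interval -1.56 to 0.89) for col1a2. The matrix glycoprotein gene sparc measured 1794, 1574 and 5575 CPM in L. fuelleborni, against 3642, 4974 and 6368 CPM in M. zebra, a log2FC of -0.74 (95% interval -1.87 to 0.39). The type X collagen gene col10a1 measured 640.1, 779 and 5801 CPM in L. fuelleborni, against 861, 1446 and 1433 CPM in M. zebra. Its highest value was again in replicate 4, and its log2FC was 0.96 (95% interval -0.33 to 2.24). The adjusted p-values of these 4 genes in the edgeR test were 0.883, 0.958, 0.799 and 0.749. None of the intervals of the 12 tested members lay within 1 log2 unit of 0, and 11 lay within 2.

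Without L. fuelleborni replicate 4 the picture of the matrix genes changed. The median log2FC of the 12 was then -1.41, beside -0.08 over all features. Of them 9 had an unadjusted p under 0.05, all lower in L. fuelleborni, beside 11.4% of all features in that fit, and 1 of the 12, sparc, passed the threshold (log2FC -1.57 ± 0.37 SE, adjusted p = 0.0476, edgeR). In that fit 74 of 2784 features (2.66%) were past the threshold, with 50 higher in L. fuelleborni and 24 higher in M. zebra. It shared 37 with the 43 above, and held 13 of the 16 named genes; svop, suv39h1 and rpl28 were lost. The list's median also moved when other libraries were left out. It was -0.14 over 14 tested members without L. fuelleborni replicate 0, and -0.04 without replicate 3, where 7 of 14 members had a log2FC above 0. It was -0.54 to -0.26 when 1 M. zebra library was left out.

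**Figure D4:**
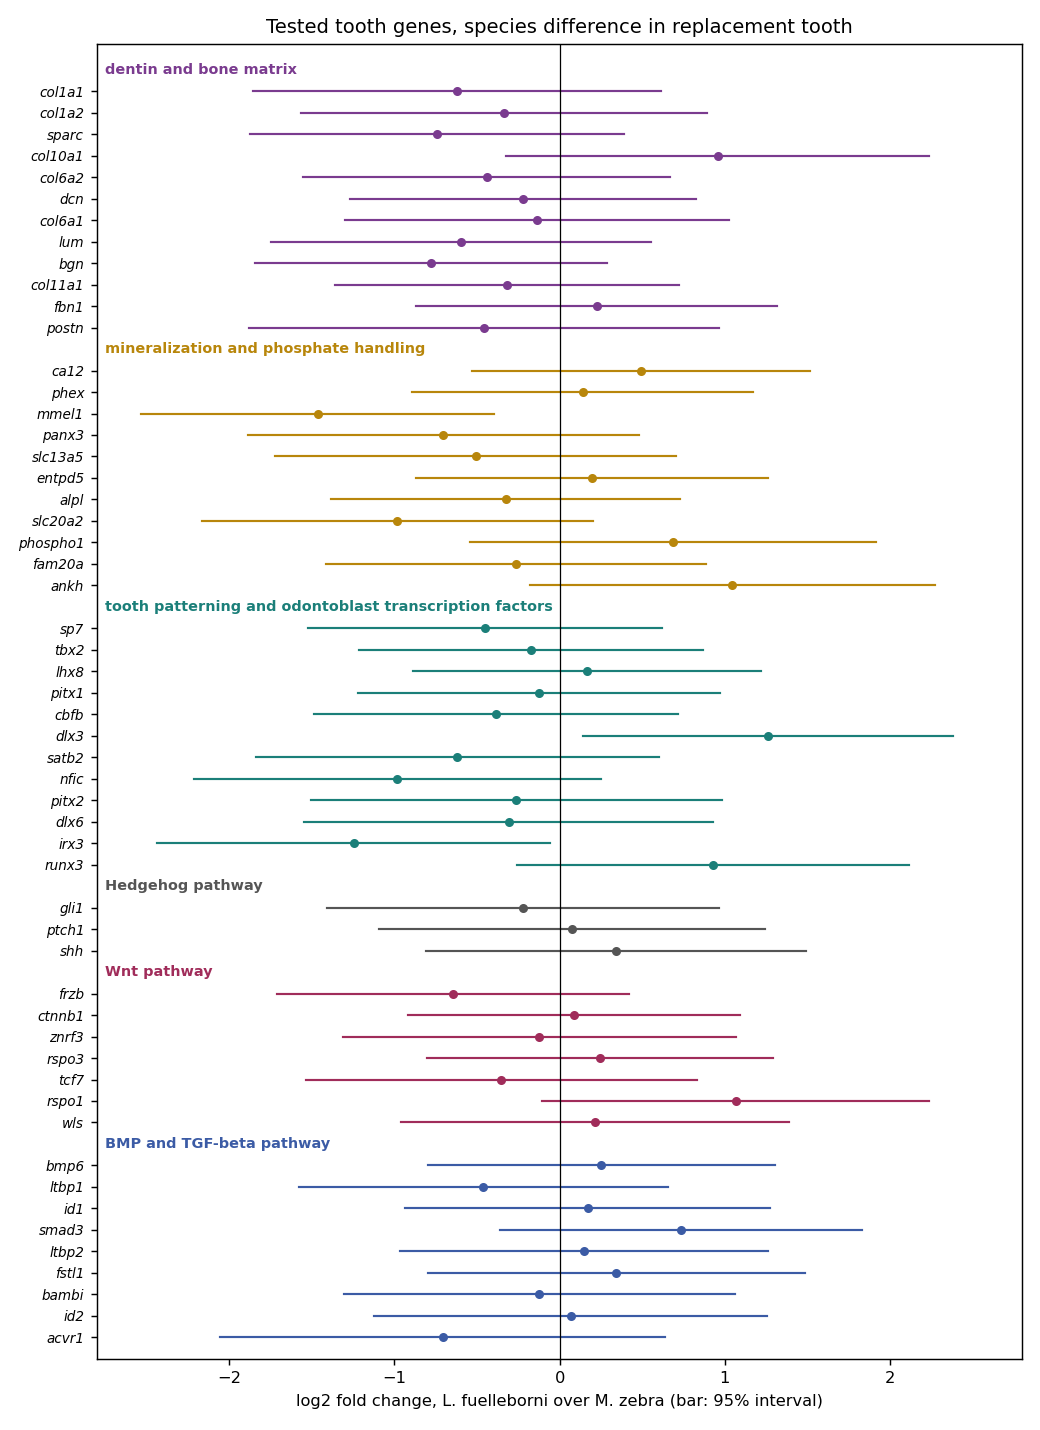
Log2 fold change of L. fuelleborni over M. zebra (x axis) for tested members of the matrix, mineralization, tooth patterning, Hedgehog, Wnt and BMP lists. Points are edgeR estimates and bars their 95% intervals; no member passed the threshold, and most intervals cross 0.

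None of the mineralization genes passed the threshold either. Of the 16 listed, 11 were tested, and the median log2FC was -0.26. Without L. fuelleborni replicate 4 the median was -0.71. In that fit 3 of 11 were lower in L. fuelleborni at an unadjusted p under 0.05, beside 11.4% of all features. In the full set of libraries 1 was, beside 3.88% of all features. The median was 0.04 without L. fuelleborni replicate 3. The carbonic anhydrase gene ca12 measured 892, 603 and 1794 CPM in L. fuelleborni, against 836, 709.9 and 804 CPM in M. zebra, a log2FC of 0.49 (95% interval -0.53 to 1.51). The gene phex, whose product regulates phosphate and mineral, measured 417, 343 and 959.9 CPM in L. fuelleborni, against 669.7, 499 and 414 CPM in M. zebra, with replicate 4 of L. fuelleborni highest of all (log2FC 0.14, 95% interval -0.89 to 1.17). The channel gene panx3, a marker of mature osteoblasts and odontoblasts in mammals, measured 87.3, 50.2 and 277 CPM in L. fuelleborni, against 147, 206 and 357 CPM in M. zebra (log2FC -0.70, 95% interval -1.89 to 0.48). The species did not overlap for 1 of the 11, the metalloprotease gene mmel1, which does not depart from the 13.4% of all features tested. The gene mmel1 measured 116, 151 and 212 CPM in L. fuelleborni, against 529, 237 and 583 CPM in M. zebra (log2FC -1.46 ± 0.52 SE, adjusted p = 0.197, edgeR). Of the enameloid list, 1 of 3 members was tested, fam83h (log2FC -0.38, 95% interval -1.45 to 0.69), the gene of a keratin-associated protein needed for human enamel. The exchanger gene slc24a4, mutated in human enamel defects, was under the filter with counts of 5, 5 and 2 in L. fuelleborni, against 0 in every M. zebra library.

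Transcription factors of tooth patterning and odontoblasts had 12 tested members of 38, none past the threshold, and a median log2FC of -0.28. The osteoblast and odontoblast factor gene sp7 measured 136, 126 and 328 CPM in L. fuelleborni, against 179, 324 and 324 CPM in M. zebra (log2FC -0.45, 95% interval -1.52 to 0.62). The early tooth field gene pitx1 had a log2FC of -0.13 (95% interval -1.22 to 0.97), tbx2 of -0.17 (95% interval -1.21 to 0.87), and lhx8, a mesenchymal tooth factor in mice, of 0.16 (95% interval -0.89 to 1.22). The homeobox gene dlx3, altered in a human disorder of teeth and hair and named here after its values were seen, measured 107, 151 and 307 CPM in L. fuelleborni, against 95.7, 61.7 and 84.6 CPM in M. zebra. Every L. fuelleborni library lay above the M. zebra libraries, but its adjusted p was 0.395 in the edgeR test (log2FC 1.26, 95% interval 0.14 to 2.38). Without L. fuelleborni replicate 4 the list's median was -0.74 and none passed the threshold. In that fit 3 of 12 were lower in L. fuelleborni at an unadjusted p under 0.05, beside 11.4% of all features.

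The signalling lists likewise had no member past the threshold. With so few tested, this does not depart from the 1.68% of all features that passed. In the Hedgehog pathway 4 of 15 genes were tested. The ligand gene shh had counts of 4, 11 and 28 in L. fuelleborni, against 8, 13 and 14 in M. zebra (log2FC 0.34, 95% interval -0.81 to 1.49), and overlapped between species. Its receptor gene ptch1, which is also its target, had a log2FC of 0.07 (95% interval -1.09 to 1.24), and the effector gene gli1 one of -0.22 (95% interval -1.41 to 0.96). Among BMP and TGF-beta genes 9 of 39 were tested. The ligand gene bmp6 measured 4568, 3616 and 1752 CPM in L. fuelleborni, against 2845, 3153 and 2336 CPM in M. zebra (log2FC 0.25, 95% interval -0.80 to 1.30). It was lowest in L. fuelleborni replicate 4 and highest in replicate 0 of that species, a wider spread than in M. zebra. The target gene id1 had a log2FC of 0.17 (95% interval -0.93 to 1.27) and the signal transducer gene smad3 one of 0.73 (95% interval -0.36 to 1.83).

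In the Wnt pathway 7 of 55 genes were tested. The gene of the effector beta-catenin, ctnnb1, measured 252, 243 and 451 CPM in L. fuelleborni, against 351, 278 and 273 CPM in M. zebra (log2FC 0.09, 95% interval -0.92 to 1.09). The secreted inhibitor gene frzb had a log2FC of -0.64 (95% interval -1.71 to 0.42), the enhancer gene rspo3 one of 0.24 (95% interval -0.81 to 1.29), and the receptor-removing ligase gene znrf3 one of -0.12 (95% interval -1.31 to 1.07). In the FGF list the ligand gene fgf2 had a log2FC of 0.38 (95% interval -0.62 to 1.38) and the receptor gene fgfr2 one of 0.18 (95% interval -0.90 to 1.25), as the 2 of 23 members tested. Notch genes gave 3 tested of 17, with the ligand gene jag1 at a log2FC of -0.72 (95% interval -1.93 to 0.49). The Eda list gave 1 of 14, the receptor gene tnfrsf19 at -0.43 (95% interval -1.45 to 0.59). The shares of members that passed the filter show how little of these pathways was measured at this depth.

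Collagen maturation enzymes gave 12 tested members of 28 and a median log2FC of -0.29. Without L. fuelleborni replicate 4 the median was -0.66. In that fit 5 of 12 were lower in L. fuelleborni at an unadjusted p under 0.05, beside 11.4% of all features. With all libraries none was, beside 3.88% of all features. The median was 0.09 without M. zebra replicate 1 and 0.03 without M. zebra replicate 3. The lysyl hydroxylase gene plod2 measured 223, 109 and 441 CPM in L. fuelleborni, against 523, 529.8 and 451 CPM in M. zebra. All 3 M. zebra libraries lay above those of L. fuelleborni, yet the interval crosses 0 (log2FC -0.93, 95% interval -1.99 to 0.14). The basement membrane list had 10 tested of 23, a median of 0.08 and none past the threshold. That median was -0.27 without L. fuelleborni replicate 4 and 0.34 to 0.60 when any other library was left out. Its member pxdn, the gene of a peroxidase that crosslinks collagen IV, measured 504, 218 and 219 CPM in L. fuelleborni, against 128, 169.8 and 136 CPM in M. zebra (log2FC 1.09 ± 0.52 SE, adjusted p = 0.491, edgeR). The anchoring fibril gene col7a1 had a log2FC of -1.16 (95% interval -2.39 to 0.08).

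Genes of the cytosolic ribosome were higher in L. fuelleborni tooth by count, but mainly in 1 tooth library. Of the 72 listed, 67 were tested, and 64 had a log2FC above 0 with a median of 1.22 beside 0.05 over all features. At an unadjusted p under 0.05, 38 were higher in L. fuelleborni, beside 5.8% of all features tested. Only rpl28 passed the adjusted threshold, which 1.68% of all features tested passed. It measured 145, 100.5 and 581 CPM in L. fuelleborni, against 51.0, 30.9 and 56.4 CPM in M. zebra, so that the L. fuelleborni values ran over a wide range with replicate 4 far above the others (fold 8.29, log2FC 2.61 ± 0.64 SE, adjusted p = 0.0228, edgeR). Its adjusted p was 0.157 or 0.0862 when L. fuelleborni replicate 4 or M. zebra replicate 1 was left out. The gene rpl39 measured 1106, 938 and 2033 CPM in L. fuelleborni, against 746, 504 and 508 CPM in M. zebra (log2FC 1.22, 95% interval 0.20 to 2.24). By contrast rpl9 had a log2FC of 0.21 (95% interval -0.82 to 1.24) and rpl5 one of 0.17 (95% interval -0.83 to 1.17). Of the 67 genes, 63 were highest in L. fuelleborni replicate 4. Without that library the log2FC of rpl28 was 1.39, the list's median log2FC was 0.29, 12 were higher in L. fuelleborni at an unadjusted p under 0.05 (beside 10% of all features) and none passed the threshold. Past the adjusted threshold were 6 of 70 without L. fuelleborni replicate 0, beside 61 of 3315 features. Without L. fuelleborni replicate 3 it was 5 of 70, beside 68 of 3273. Without M. zebra replicates 0, 1 and 3 it was 2, 0 and 1 of 69, beside 68 of 3307, 46 of 2824 and 53 of 2782. It was 4 of 67 with DESeq2, beside 52 of 2552, and 0 of 67 with limma-voom, beside 27 of 2552. In taste bud epithelium the list held 6.68%, 4.2% and 3.22% of counts in L. fuelleborni, against 1.72%, 1.41% and 2.26% in M. zebra. There every L. fuelleborni library lay above every M. zebra library. Ribosomal protein genes have processed copies in many genomes, so that single values such as that of rpl28 are uncertain where reads could be split between copies.

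**Figure D5:**
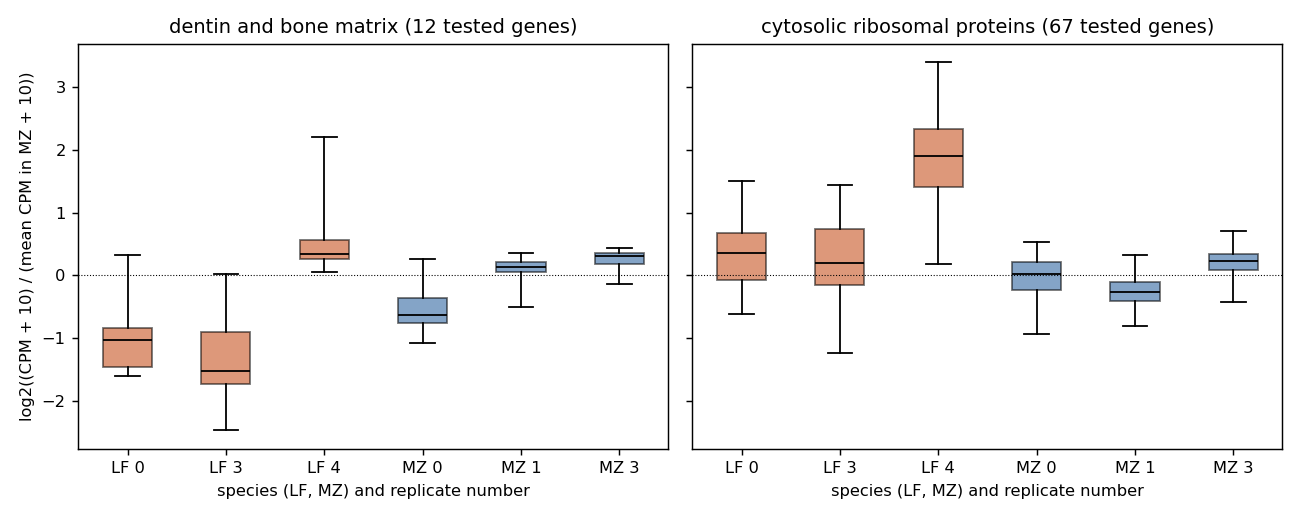
Log2 of CPM over the M. zebra mean CPM (pseudocount 10 CPM) in each tooth library for 12 dentin and bone matrix genes (left) and 67 cytosolic ribosomal protein genes (right); boxes are quartiles over genes with the median as a line, and whiskers reach the lowest and highest gene. In L. fuelleborni replicates 0, 3 and 4 the matrix medians are -1.03, -1.52 and 0.34 and the ribosomal medians 0.35, 0.19 and 1.90, so that replicate 4 is the highest of its species in both lists.

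Markers of other cell types were compared over their whole lists. Immune cell markers summed to 197, 106 and 938 CPM in L. fuelleborni, against 103, 217 and 269 in M. zebra. Of the 23 listed, 4 had no count in tooth, among them cd3e, rag1 and rag2, and 1 passed the filter. Osteoclast markers, from cells that resorb bone and open the path of a new tooth, summed to 305, 374 and 1118 CPM in L. fuelleborni, against 565, 466 and 655 in M. zebra. Their 3 tested members did not pass. The gelatinase gene mmp9, under the filter, had counts of 1, 5 and 106 in L. fuelleborni, against 2, 7 and 10 in M. zebra. The antigen presentation gene cd74 had counts of 16, 6 and 200 in L. fuelleborni, against 14, 29 and 32 in M. zebra (log2FC 1.23, 95% interval -0.06 to 2.53). Both genes were thus high in L. fuelleborni replicate 4, the library with high ribosomal and matrix counts. Their part in those counts was not tested. Endothelial markers were high in that library too, at 322, 301 and 842 CPM in L. fuelleborni, against 308, 292 and 325 in M. zebra, with 1 of 17 tested and none past the threshold. Stress and immediate early genes, which respond to handling of tissue, summed to 2177, 2082 and 4853 CPM in L. fuelleborni, against 3195, 3038 and 3754 in M. zebra. Of the 34 listed, 9 were tested and none passed, and 6 of the 9 were highest in L. fuelleborni replicate 4. The same held for 7 of 12 matrix genes, 63 of 67 ribosomal protein genes and 2 of 10 cell cycle genes. The share over all features was not taken. The part of stress genes in the other differences of that library was not tested. Taste receptor cell markers summed to 1415, 1488 and 958 CPM in L. fuelleborni, against 1007, 1332 and 1057 in M. zebra. Of the 17 listed, 3 were tested and none passed. Schwann cell and nerve markers summed to 448, 407 and 313 CPM in L. fuelleborni, against 192.5, 260 and 315 in M. zebra. Of the 21 listed, 2 were tested and none passed. Erythrocyte, pigment cell and cartilage markers had no tested member.

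The taste bud libraries of the same species, which the tooth test did not use, allowed the 43 features to be read in other samples. In taste bud epithelium the 3 libraries of one species lay above the 3 of the other, in the direction seen in tooth, for 28 of the 43 (65.1%). Of all 2552 features this held for 13.1%. One unnamed feature of the 43 was separated in the opposite direction, beside 7.76% of all 2552 features, and 14 overlapped. Replicate number 4 occurs in both L. fuelleborni tissues, and numbers 1 and 3 in both M. zebra tissues. The labels do not say whether libraries with the same number share an animal, so the taste bud libraries may not be independent samples. Among the 16 named genes, 10 were separated in the same direction. For smc6 the taste bud counts were 3615, 4166 and 6191 in L. fuelleborni, against 2, 0 and 1 in M. zebra. For pdpr they were 63, 130 and 141 in L. fuelleborni, against 0, 3 and 6 in M. zebra. The counts of mkks were 3, 6 and 4 in L. fuelleborni, against 9, 9 and 34 in M. zebra, far fewer than in tooth. Others of the 10 were cdk5rap1, tgds, clmn, rpl28, svop and scarf1. The 6 that overlapped were dnajb13, suv39h1, tram2, cdc40, fbxo32 and tmf1, of which dnajb13 had 1 taste bud count and suv39h1 and tram2 had none.

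Whether the species difference itself differed between tissues was tested as an interaction over all 12 libraries. In the edgeR test none of 2962 features (0%) passed an adjusted p of 0.05, and 228 (7.7%) had an unadjusted p under 0.05. DESeq2 gave none either, with 220 at an unadjusted p under 0.05, while limma-voom gave 1, LOC101470201, which had 68, 106 and 93 counts in L. fuelleborni tooth and 0 in the other 9 libraries (adjusted p = 5.49e-06). For smc6 the difference in log2FC, tooth minus taste bud, was -3.45 ± 1.05 SE (adjusted p = 0.385), and for mkks -3.35 ± 0.93 SE (adjusted p = 0.256). In the edgeR test no gene's species difference was therefore shown to be particular to tooth, among features for which the interaction could be estimated. The interaction could not be estimated for 131 of the 2962 features, 7 of them among the 43, taken as an SE over 50. Of the named genes these were tram2 and suv39h1, for which the taste bud libraries held no count. LOC101470201, the feature past the threshold in limma-voom, was also among the 7, so the edgeR test could not have called it.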

How the data were processed

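The authors deposited raw counts of reads at gene features in a single table that holds a column for each library. No normalization had been applied, and all values were whole. The submitters' processing notes list, without role or order, edgeR 3.6.8, limma 3.20.9, HTSeq 0.6.1, SAMtools 0.19 and TopHat2 2.0.9. For build, annotation and strand setting the sources used here give nothing. The count table had no line for unassigned reads.

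Samples were grouped by the labels. The 6 tooth libraries were filtered with filterByExpr (minimum count 10, minimum total 15, smallest group 3), scaled by TMM factors and tested for species with edgeR 4.0.16 in R 4.3.3 (quasi-likelihood, two-sided, no covariate). P-values were adjusted by Benjamini-Hochberg over all 2552 features, at a threshold of 0.05. Intervals are 95% intervals of the model. Folds divide the summed counts, each taken relative to the summed scaled library sizes of its species. A fold therefore gives most weight to the deepest library of a species, such as L. fuelleborni replicate 4, and can differ from the log2FC. Against a group at 0 it is a lower bound set by 3 counts over the group, and with 1 to 3 counts it has a 95% counting interval. The interaction with tissue was fitted to all 12 libraries. No pair of tooth libraries agreed within sampling noise (chi-square per degree of freedom 2.81 to 9.15). With 3 libraries per species an exact permutation test cannot go below a p of 0.1, so single genes were read from the fit across features. The code was tested on simulated data.

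Named genes are features with a gene name that passed the threshold with no overlap of the species: the 12 with the largest absolute log2FC in each direction at an average log2 CPM of at least 5, the 10 with the highest mean CPM, and list members that passed, up to 6 a list. Up to 4 members a list that did not pass are given with values, and 2 locus numbers in each direction. List membership went by symbol, with or without a trailing a or b. The comparison, its genes and the lists were chosen with earlier results of these data known. Kinases, binding proteins and other genes that a name pattern caught by mistake (such as S6 kinases among ribosomal proteins) were left out of their lists after the table was seen. Alternatives were other scalings, filters and tests (DESeq2 1.42.0, limma-voom 3.58.1, robust edgeR), a replicate block, the ribosomal share as a covariate, all 12 libraries, and leaving out each library. The values of 3 genes, 1 of them past the threshold, are not reported here.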

Additional observations from a re-analysis of the deposited data

How the results depend on the processing

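The tooth count of 43 features was 151 of 19518 with no filter (64 higher in L. fuelleborni, 87 in M. zebra) and 17 of 901 with a minimum count of 30 (10 and 7), where fewer features were tested. It was 27 with limma-voom (17 and 10). The other scalings, DESeq2, robust edgeR, the ribosomal covariate and all 12 libraries gave 42 to 52. Of the 43, these settings shared 40 to 43 and held 15 or 16 of the 16 named genes, except the ribosomal covariate (32 and 12) and all 12 libraries (32 and 10). Limma-voom shared 26 and held 9 named genes, no filter 40 and 15, and a minimum count of 30 shared 17 and held 8. Leaving out each library gave 46 to 74 in all, with 2782 to 3315 features tested. Of these 25 to 50 were higher in L. fuelleborni and 20 to 33 higher in M. zebra. Such fits shared 32 to 37 of the 43 and held 11 to 13 named genes. The cause of these shifts was not tested. Scaling to library totals moved the median log2FC of all features to -0.08, and the share of calls higher in L. fuelleborni to 47.7%, beside 55.8%. None of the 16 named genes past the threshold changed direction in the settings run. Of the named genes smc6, mkks and pdpr passed in all 17 settings, cdk5rap1 failed only with the block, and tmf1 failed in 12. The interaction count of 0 was 2 with no filter and 1 with limma-voom; all 3 have a locus number only. With the ribosomal share as a covariate col1a1 (log2FC -1.77, adjusted p = 0.0333) and sparc (-1.65, adjusted p = 0.0316) passed the edgeR threshold as lower in L. fuelleborni. That share was 6.62% in L. fuelleborni replicate 4 and 1.93% to 2.79% in the other tooth libraries, so the covariate mostly marks replicate 4. The fit is thus close to leaving that library out and is not a separate adjustment. The matrix list's median log2FC was -1.50 with the covariate and -1.41 without replicate 4.

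Replicate numbers 0 and 3 occur in both species, but the labels tie them to no shared batch or day. Deviations from the species means correlated at 0.159 for the libraries numbered 0 and -0.218 for those numbered 3. With 3 libraries per species such deviations constrain each other, so these values cannot exclude a shared batch. As the labels give no such tie, the numbers were not taken as pairs. With the replicate number as a block, 11 features passed (9 higher in L. fuelleborni, 2 in M. zebra), 4 of them named. That fit rests on the 2 shared numbers and has few residual degrees of freedom.

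Depth limits these results: 1 count was worth 3.33 to 8.96 CPM, and 2552 of the 19518 features with a count passed the filter.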

Other observations

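Among features too low for the filter, 28 named ones passed an adjusted p of 0.05 when edgeR was run without it. In that fit 151 of all 19518 features passed. In 19 of the 28 the species did not overlap, and the share without overlap among all features under the filter was not taken. At such counts separation says little: upb1, 1 of the 19, had counts of 0, 0 and 0 in L. fuelleborni, against 1, 32 and 1 in M. zebra. The following were picked from the 19 after their values were seen. The gene piwil1, whose product guards the germ line through piRNAs, had counts of 8, 7 and 28 in L. fuelleborni, against 1, 0 and 0 in M. zebra, a ratio of 47.1 with a 95% counting interval of 8.01 to 1902 (adjusted p = 0.00130). The matrix glycoprotein gene emilin2 had counts of 7, 10 and 13 in L. fuelleborni, against 1, 0 and 1 in M. zebra, a ratio of 16.4 with a 95% counting interval of 4.17 to 142 (adjusted p = 0.0279). The telomere-binding protein gene terf1 had counts of 17, 4 and 11 in L. fuelleborni, against 0, 2 and 2 in M. zebra, and was 8.76-fold higher in L. fuelleborni (adjusted p = 0.0481). In the other direction, slc26a2, the gene of a sulfate transporter needed for cartilage proteoglycans, had counts of 0, 0 and 5 in L. fuelleborni, against 16, 10 and 17 in M. zebra, and was 7.86-fold lower in L. fuelleborni (adjusted p = 0.0164). The gene galnt11, for an enzyme that starts O-linked glycans, had counts of 0, 0 and 1 in L. fuelleborni, against 3, 16 and 7 in M. zebra, an M. zebra over L. fuelleborni ratio of 23.8 with a 95% counting interval of 3.90 to 974 (adjusted p = 0.0310). All these values rest on few counts.

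Some genes were abundant in part of a species' libraries and at or near 0 in the rest. They were named after their values were seen. The kinase gene nek10 had 500 counts in L. fuelleborni tooth replicate 4 and 0 in the other tooth libraries. In taste bud it had 575 counts in L. fuelleborni replicate 4 and 0 in the other 5 libraries. The scavenger receptor gene stab1 had 71 counts in L. fuelleborni tooth replicate 4, against 0 to 3 in the other tooth libraries, and 62 in L. fuelleborni taste bud replicate 4. The phosphatase gene ppef2 had 79, 123 and 172 counts in L. fuelleborni tooth, against 39, 0 and 55 in M. zebra tooth. In taste bud its counts were 55, 101 and 115 in L. fuelleborni, against 0, 35 and 42 in M. zebra, with replicate 1 at 0 in both M. zebra tissues. The labels do not say whether libraries with the same number came from the same animal.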
